A study of Mus musculus with 2 samples.

Results

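The 38 genes described here encode lysosomal hydrolases, their activator proteins and proteins of the lysosomal membrane. They were taken by name from a list of symbols. The rule used no measured value, but the list was chosen with earlier results of these data known. Each symbol matched 1 of the 55536 annotated mouse genes. The list holds 12 cathepsins with Tpp1, 10 glycosidases, 4 sulfatases, 4 lipid hydrolases, 2 activators (Psap and Gm2a) and 5 membrane proteins.

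Total RNA, 300 ng per library, was sequenced from hippocampus (labelled as layer of hippocampus) of male 5xFAD/CAST mice, adults of 8 to 10 months. There was 1 group of 2 libraries, biological replicates 1 and 2, and mice without the transgenes were not analysed here, so no comparison between conditions was made. 5xFAD mice carry a human APP transgene that bears familial Alzheimer disease mutations, under the Thy1 promoter, which acts mainly in neurons. The labels give the CAST cross to both libraries, and reads of CAST alleles were counted on the mm10 reference, whose part in the values was not tested. Both libraries carry 1 donor identifier, so each SD and p-value covers the spread of this pair of samples and no more, and that spread may be technical. The libraries held 26128897 and 28689423 expected counts, the deposited estimates of reads per entry, with spike-in RNAs included. Of these, 25987278 and 28560782 were on annotated mouse genes. Levels are given as TPM, transcript abundances that are scaled for transcript length and can be compared between genes.

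Lysosomes are acidic organelles that break down proteins, glycans, sulfated sugars and lipids delivered by endocytosis, phagocytosis and autophagy. Most of their soluble enzymes reach them on mannose 6-phosphate receptors, while membrane proteins protect the limiting membrane and move ions and products across it. The transcription factors TFEB, TFE3 and MITF bind E-box sequences near the start sites of many lysosomal genes. In brain, neurons, astrocytes and oligodendrocytes all hold lysosomes, and microglia are rich in them. In bulk tissue RNA, fewer cells of a type and less RNA per cell cannot be told apart.

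All 38 genes reached at least 1 TPM in both libraries, against 60.5% of the 21938 nuclear protein-coding genes. Because the list was chosen with earlier results known, this and the next comparison are descriptions only. Of the 38, 27 lay above 15.7 TPM, the median of the 13271 detected protein-coding genes, and 10 lay above their 90th percentile. The median level of the 38 was 36.0 ± 2.06 TPM (SD, n = 2). The genes spanned a 483-fold range of TPM, from Psap at the top to Ctsk at the bottom. The summed TPM was concentrated in few genes: Psap and Ctsd together held 40.9% of the summed TPM, and with Ctsb and Ctss 57.1% ± 0.468 (SD, n = 2). The 38 genes together took 0.752% of the TPM of nuclear protein-coding genes in replicate 1 and 0.713% in replicate 2. In the order of levels, 22 of the 37 neighbouring pairs had separate values in the 2 libraries and 15 overlapped.

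**Figure D1:**
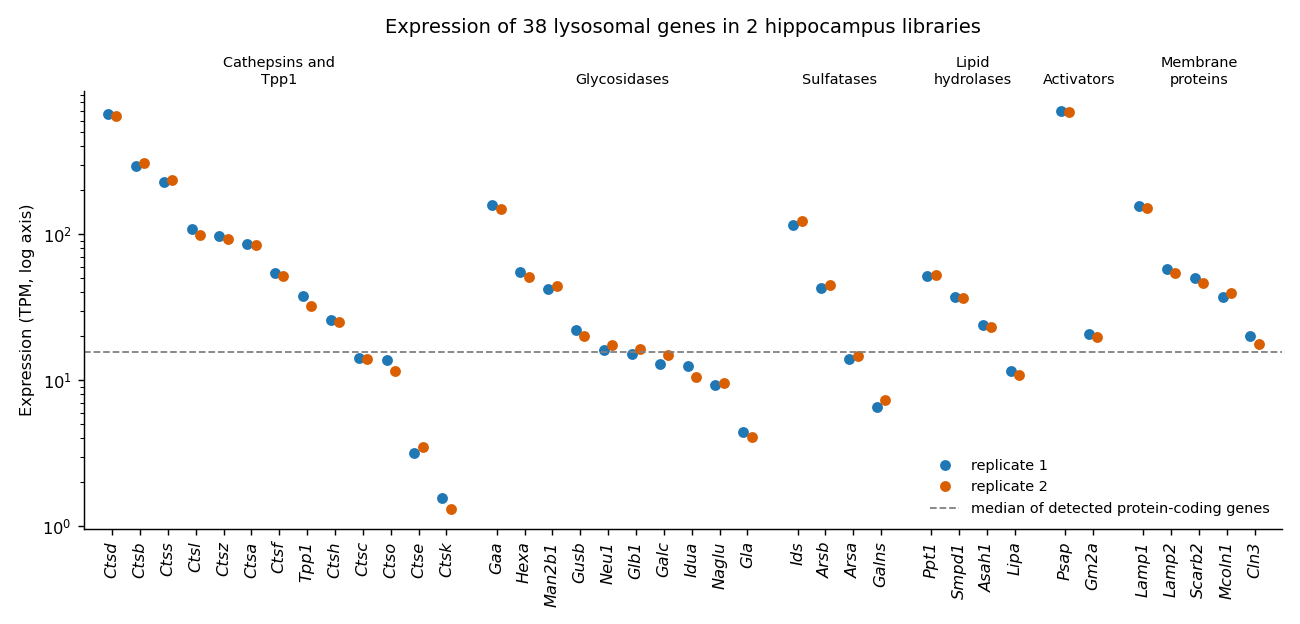
Expression of each gene (TPM, log axis) in replicate 1 (blue) and replicate 2 (orange), grouped by role and ordered by level within a role. The dashed line is the median of detected protein-coding genes, 15.7 TPM; Psap and Ctsd stand highest and Ctsk lowest.

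Sequences near the start sites are shown first, because the E-box core CACGTG is the best known shared feature of lysosomal promoters. The sequences are RefSeq promoters on GRCm38.p6, 250 bases before to 50 after each start site, and show the reference strain, not these mice. Of the 38 genes, 33 had an entry; Ctsb, Ctse, Ctsh, Galns and Asah1 did not. The core, which reads the same on both strands, occurred in 12 of 33 promoters (36.4%): Ctsa, Ctsd, Ctsf, Ctsl, Gaa, Gla, Glb1, Naglu, Arsa, Lamp1, Mcoln1 and Cln3. It occurred in 8.09% of all 27025 genes with an entry and in 11.7% of the 10338 detected protein-coding ones. The longer TCACGTGA, which contains the core, occurred in 5 of 33 (15.2%), against 1.12% of all genes and 2.15% of detected ones. The same motif with G before it and C after it occurred in Cln3 alone among the 33, against 0.370% of all genes. With CATGTG counted as well as the core, searched on both strands, the count was 17 of 33 (51.5%) against 22.7% of all genes.

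The 5 promoters with TCACGTGA are printed 5′ to 3′ on the strand of the gene, in 30-base windows with each CACGTG in capitals. Lamp1, added after its values were seen, is printed over 64 bases because its promoter held 4 cores, the highest number among the 33.
Ctsa: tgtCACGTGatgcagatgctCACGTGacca
Ctsd: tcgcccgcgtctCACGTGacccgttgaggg
Mcoln1: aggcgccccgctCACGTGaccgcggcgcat
Cln3: cacgggtactgtCACGTGacccccaacctg
Gla, farther from the start: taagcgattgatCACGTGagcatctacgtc
Gla, nearer to the start: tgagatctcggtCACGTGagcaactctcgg
Lamp1: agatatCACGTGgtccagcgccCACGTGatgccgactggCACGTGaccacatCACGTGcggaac

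The windows lie at chr2:164833758-164833787 on the plus strand for Ctsa, chr7:142387908-142387937 on the minus strand for Ctsd and chr8:3500462-3500491 on the plus strand for Mcoln1. The Cln3 window lies at chr7:126583340-126583369 on the minus strand, and those of Gla at chrX:134601215-134601244 and chrX:134601182-134601211 on the minus strand. The Lamp1 window lies at chr8:13159094-13159157 on the plus strand. In the GENCODE M21 annotation the Ctsa, Ctsd, Mcoln1 and Cln3 windows overlap exons of those genes' own transcripts that start farther upstream than the RefSeq start. Both Gla windows overlap exons of Hnrnph2, a gene on the other strand, and the Lamp1 window overlaps no annotated gene. Of the 20 cores in these 12 promoters, 19 lay before the start site and 13 within 100 bases of it, and 6 of the 12 genes held more than 1. Genes with the core had a median of 45.8 TPM and those without 37.1 TPM, and the ranges, 4.24 to 657 and 1.44 to 696 TPM, overlapped along nearly their whole length. A match is a description of letters, and binding was not measured.

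The cathepsins with Tpp1 carried 49.0% of the summed TPM of the 38 genes in replicate 1 and 49.1% in replicate 2. Ctsd, the aspartic protease that is abundant in most lysosomes, stood at 665 and 649 TPM in replicates 1 and 2. The cysteine proteases Ctsb, at 296 and 308 TPM, and Ctss, at 229 and 237 TPM, came next; Ctss is known as a protease of microglia and other myeloid cells. These 3 genes lay above the 98th percentile of detected protein-coding genes, and their order was the same in both libraries.

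Ctsl, an endopeptidase that also processes other cathepsins, was measured at 109 and 98.8 TPM. Ctsz, a carboxypeptidase, was at 98.03 and 93.25 TPM, and Ctsa, the serine carboxypeptidase that stabilises Neu1 and Glb1, at 85.85 and 84.54 TPM. Their values were separate, so the order Ctsl, Ctsz, Ctsa held in both libraries. Ctsf was at 54.35 and 51.79 TPM and Tpp1, a tripeptidyl peptidase lost in a childhood ceroid lipofuscinosis, at 37.8 and 32.4 TPM.

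The remaining cathepsins were lower. Ctsh, an aminopeptidase, had 25.7 and 25.25 TPM. Ctsc, which activates serine proteases of immune cells, and Ctso lay between 11.6 and 14.3 TPM in both libraries. Ctse, an endosomal aspartic protease, had 3.17 and 3.52 TPM, and Ctsk, the collagen-degrading protease of osteoclasts, 1.56 and 1.32 TPM. Ctsk rested on 40 and 36 expected counts and was the least precisely measured of the 38.

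Glycosidases covered a wide range under 1 leading gene. Gaa, the acid alpha-glucosidase that degrades glycogen, was at 159 and 149.8 TPM. Hexa, the alpha subunit of beta-hexosaminidase, which with Gm2a acts on ganglioside, was at 55.6 and 51.1 TPM, and Man2b1, an alpha-mannosidase, at 42.2 and 44.1 TPM. Gaa lay above Hexa, and Hexa above Man2b1, in both libraries. Gusb, Neu1, Glb1, Galc and Idua, which remove glucuronic acid, sialic acid, galactose, the galactose of myelin lipids and iduronic acid, lay between 10.5 and 22.2 TPM. Naglu, which acts on heparan sulfate, had 9.28 and 9.55 TPM. Gla, the alpha-galactosidase that acts on globotriaosylceramide, had 4.40 and 4.07 TPM, the lowest of the glycosidases.

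Among the sulfatases, Ids, which removes sulfate from iduronic acid in dermatan and heparan sulfate, was at 116 and 122 TPM. Arsb, which acts on dermatan and chondroitin sulfate, was at 43.1 and 45.2 TPM, Arsa, which acts on the myelin lipid sulfatide, at 14.0 and 14.8 TPM, and Galns at 6.57 and 7.35 TPM. Levels of the 4 sulfatases were separate from each other in both libraries. Among the lipid hydrolases, Ppt1, which removes palmitate from proteins, led with 51.9 and 52.3 TPM. Smpd1, the acid sphingomyelinase, had 37.5 and 36.7 TPM, Asah1, the acid ceramidase, 23.8 and 23.2 TPM, and Lipa, the acid lipase, 11.65 and 10.8 TPM.

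Psap encodes prosaposin, the precursor of the saposins that present sphingolipids to their hydrolases. It was the highest of the 38 genes, at 701 and 690.2 TPM on 32199 and 33930 counts, above Ctsd in both libraries. Gm2a, the activator of ganglioside cleavage by beta-hexosaminidase, was at 20.7 and 19.9 TPM. The Psap transcripts differ at a 9-base exon on chromosome 10 (chr10:60297537-60297545, plus strand, mm10). It is shown in capitals with 15 coding bases on either side, as GENCODE M21 gives them. The leading transcript Psap-205 holds it and Psap-202 does not.
Psap-205: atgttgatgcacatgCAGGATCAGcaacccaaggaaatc
Psap-202: atgttgatgcacatgcaacccaaggaaatc

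Psap-205, with the small exon, held 62.4% of the gene's TPM in replicate 1 and 66.1% in replicate 2, and 59.5% and 64.1% in the alignment-free table. Psap-202 held 9.65% and 13.75% in the alignment-based table, and 19.7% and 16.4% in the other. Psap-203, annotated with 14 exons and 1653 coding bases, held 27.4% and 19.7%, and 12.9% and 11.9% in the alignment-free table. Its sequence at the small exon was not examined. Psap-205 led in both libraries and both tables, while the share of Psap-203 moved by more between tables than between libraries. Psap-204 has as many exons and coding bases as Psap-205, and whether it holds the small exon was not examined. Psap-204 held 0% and 0.14% of TPM, and 6.27% and 5.64% in the alignment-free table. The exon was chosen for display after the shares were seen.

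Lamp1 and Lamp2 encode the heavily glycosylated proteins that line the lysosomal membrane. Lamp1 was at 157 and 151 TPM, overlapping Gaa, and Lamp2 at 57.9 and 54.0 TPM. Scarb2 (LIMP-2), which carries glucocerebrosidase to lysosomes, was at 50.1 and 46.7 TPM. Mcoln1, the cation channel TRPML1, was at 37.4 and 39.7 TPM, and Cln3, the membrane protein mutated in juvenile ceroid lipofuscinosis, at 20.2 and 17.85 TPM. Lamp1 stood above the other 4 membrane genes in both libraries, and Cln3 below them.

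Lamp2 makes alternative proteins, known as LAMP-2A, LAMP-2B and LAMP-2C, whose cytosolic tails come from different last coding exons. LAMP-2A is known as the receptor of chaperone-mediated autophagy. The last 33 coding bases before the stop codon in GENCODE M21 are shown, because they set the 3 transcripts apart. Capitals mark the last 15 bases, which encode the lysosomal sorting tail.
LAMP-2A: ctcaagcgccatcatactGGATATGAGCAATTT
LAMP-2B: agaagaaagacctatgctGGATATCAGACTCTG
LAMP-2C: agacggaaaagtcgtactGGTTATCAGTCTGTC

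These exon ends lie on the minus strand of the X chromosome (mm10), at chrX:38405435-38405467 for LAMP-2A, chrX:38421715-38421747 for LAMP-2B and chrX:38402142-38402174 for LAMP-2C. Per length, LAMP-2A stood at 21.6 and 19.0 TPM, LAMP-2B at 20.4 and 20.3 TPM and LAMP-2C at 13.15 and 12.2 TPM. LAMP-2A held 37.4% and 35.2% of the gene's TPM, LAMP-2B 35.3% and 37.6%, and LAMP-2C 22.7% and 22.6%. The alignment-free table gave 34.8% and 34.0%, 36.1% and 37.4%, and 23.6% and 23.0%. The shares of LAMP-2A and LAMP-2B could not be ordered, and LAMP-2C was the lowest of the 3 in both libraries and both tables. By expected counts, which are not scaled for length, LAMP-2B led with 50.3% and 52.7%, on an annotated transcript of 3604 bases against 1769 for LAMP-2A. These ends were chosen for display after the values were seen.

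**Figure D2:**
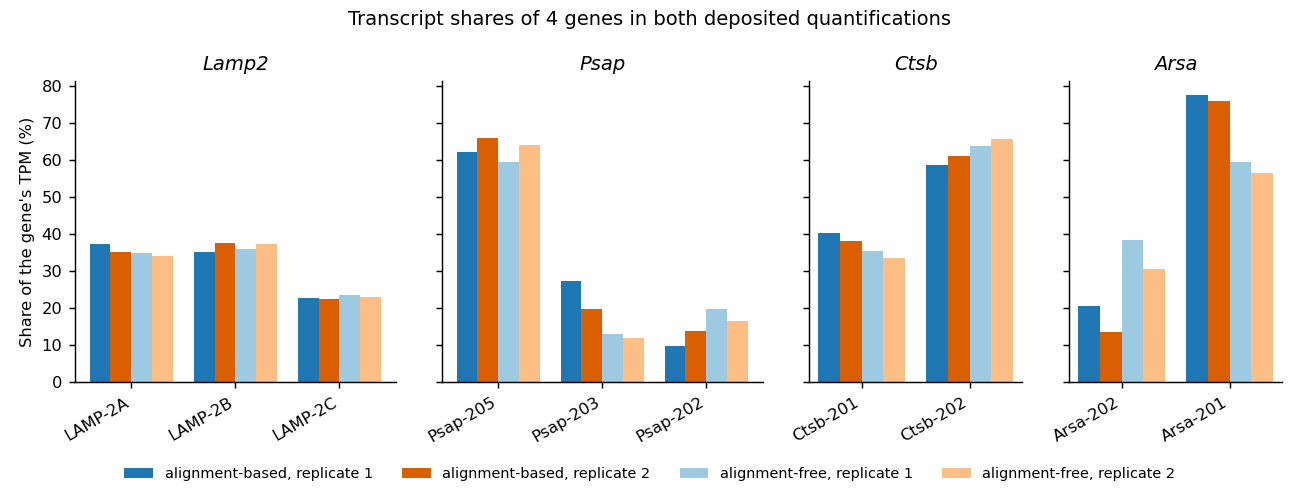
Share of the gene's TPM (percent, linear axis) held by selected transcripts of Lamp2, Psap, Ctsb and Arsa, per library, in both deposited transcript tables. LAMP-2C is the lowest of the Lamp2 bars, Psap-205 leads Psap, and the retained-intron transcripts Ctsb-202 and Arsa-201 lead their genes.

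Most of the RNA of the 38 genes was assigned to protein-coding transcripts. These held 95.1% ± 0.144 (SD, n = 2) of their expected counts and 88.6% ± 0.196 of their TPM. Transcripts with a retained intron held 4.06% of counts and 9.32% of TPM, and those annotated for nonsense-mediated decay 0.564% and 1.16%. The median share over the 38 genes was 96.6% of counts and 94.2% of TPM, against 94.8% and 86.8% over detected protein-coding genes. In 10 of the 38 all counts lay on coding transcripts, to within 0.05 percentage points. In 7 under 50% of the TPM did: Ctsb, Ctsf, Tpp1, Ctsh, Idua, Arsa and Cln3.

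Ctsb was the most abundant of these 7. Its coding transcript Ctsb-201, of 4743 bases, held 81.5% and 80.2% of the gene's counts but 40.2% and 38.1% of its TPM. The retained-intron transcript Ctsb-202, of 801 bases, held 18.0% and 19.4% of the counts and 58.9% and 61.2% of the TPM. Of the 801 bases of Ctsb-202, 710 (88.6%) are also exonic in Ctsb-201 and 91 are its own. On its coding transcript alone Ctsb stood at 119 and 117 TPM, below Ctss and Gaa whereas its gene total lay above theirs. Ctsb also overlaps Fdft1, a gene on the other strand.

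Arsa differed from Ctsb in that its counts pointed the same way as its TPM. The retained-intron transcript Arsa-201 held 74.1% and 79.2% of counts and 77.6% and 76.05% of TPM, and the coding Arsa-202 20.5% and 13.4% of TPM. The alignment-free table gave Arsa-201 less, 59.6% and 56.6%, and it still led. Ctsh was led by Ctsh-202, annotated for nonsense-mediated decay, at 36.45% and 49.99% of TPM, and Cln3 by a processed transcript at 22.5% in replicate 1, with a coding one leading in replicate 2 at 16.7%.

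**Figure D3:**
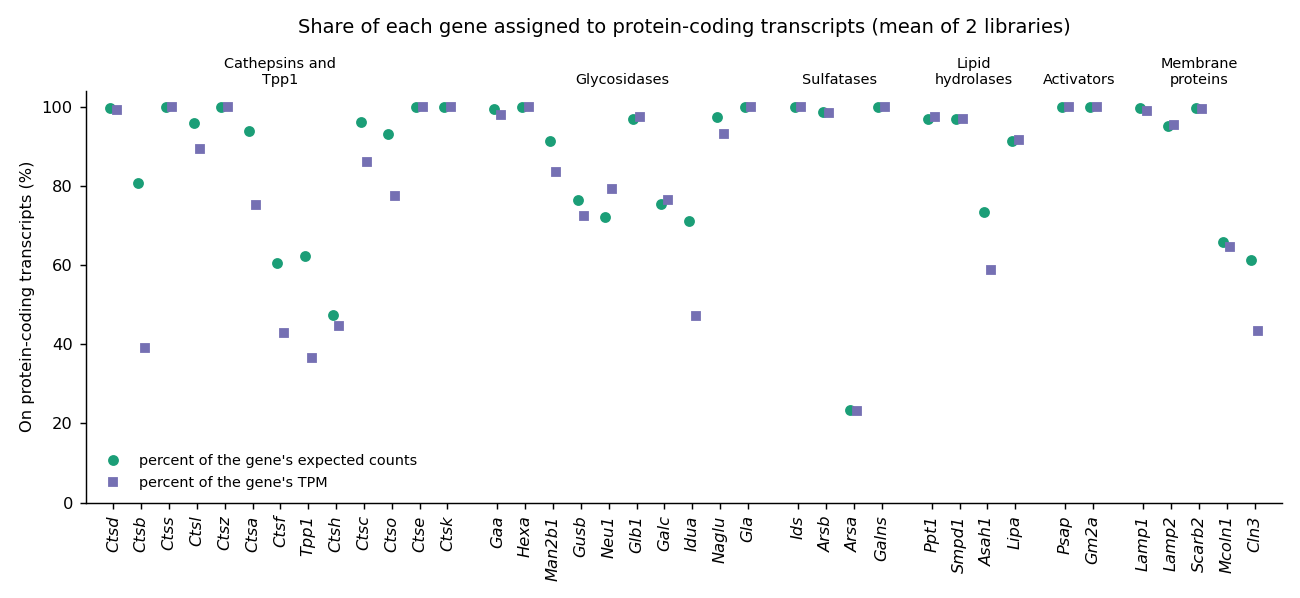
Percent of each gene's expected counts (circles) and TPM (squares) assigned to protein-coding transcripts, as the mean of 2 libraries, in the alignment-based table. Arsa is lowest, and Ctsb shows the widest gap between counts and TPM.

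Among the 38 genes, 7 overlap another annotated gene on their own strand: Ctsd, Ctss, Ctsl, Arsb, Cln3, Glb1 and Galns. How reads were split there was not tested. The deposited coefficient of quartile variation of TPM, a measure of how well a level is set by its reads, was under 0.05 in both libraries for 30 of the 38 and highest, at 0.111, for Ctsk.

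The leading transcript was the same in both tables and both libraries for 31 of the 38 genes, 27 of the 34 with more than 1 annotated transcript. The 7 others were Ctsl, Tpp1, Idua, Asah1, Lipa, Lamp2 and Cln3. For Lipa the alignment-free table moved from Lipa-201 (63.7%) in replicate 1 to Lipa-202 (85.0%) in replicate 2, while the alignment-based table kept Lipa-201 at 91.5% and 83.5%. For Idua the alignment-based table moved from Idua-203 (40.5%) to Idua-202 (40.8%). The leading transcript held under 50% of the TPM, on average, in Gaa, Lamp2, Ctsf, Tpp1, Ctsh, Cln3 and Idua. Of these, Gaa, Ctsf and Ctsh kept the same leading transcript by TPM in both tables and both libraries. For the 7 genes whose leading transcript differed, the lead depended on the table or the library, and their transcript shares are to be read with care. Over the 38, the alignment-free count was 1.03 to 1.30 times the alignment-based one. The median was 1.13, against 1.14 over 7446 protein-coding genes with at least 500 counts. Gene TPM depend on the transcript shares and moved either way. The alignment-free table gave Asah1 31.0 and 29.8 TPM against 23.8 and 23.2, and Tpp1 47.9 and 41.7 against 37.8 and 32.4. It gave Lamp2 48.7 and 48.0 TPM against 57.9 and 54.0.

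Differences between the 2 libraries were small for all 38 genes. None of the 38 was more than 2-fold apart, against 2% of the 16971 genes tested, and the 95% counting interval of the ratio lay within 2-fold for all 38. Counts were scaled by TMM, a method that sets the bulk of genes to no change, and tested by an exact conditional binomial test with Benjamini-Hochberg adjustment over all genes tested. On that scale 9 of the 38 (23.7%) differed beyond counting error, against 18.4% of all genes, and all 9 were lower in replicate 2, against 9.13% of all genes lower and 9.29% higher. The share in either direction was near the background, and the share lower in replicate 2 was above it on this scale. The background covers all genes with a mean count of at least 20 and was not matched for counts. With a minimum of 100 counts it was 21.9%, and 9 of 37 lysosomal genes were called. By sign 26 were lower in replicate 2 and 12 higher, with a median log2 ratio of -0.07 against -0.0012 for all genes. The direction reversed when libraries were scaled by their spike-in RNAs, which put 27 of the 38 beyond counting error, all higher in replicate 2, against 59.1% of all genes in either direction and 56.5% higher. Spike-in scaling added 0.27 to every log2 ratio: the median of all genes became 0.27 and that of the 38 became 0.20, as far below all genes as on the TMM scale.

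The following ratios are relative to the bulk of genes, and on the spike-in scale each of the 9 was higher in replicate 2. Psap had a log2 ratio of -0.05 (95% counting interval -0.07 to -0.03; exact binomial adjusted p = 4.68e-05) and Ctsd -0.07 (-0.09 to -0.04; exact adjusted p = 4.04e-06). Ctsl had the largest difference of the 9, -0.20 (-0.28 to -0.12; exact adjusted p = 2.41e-05), and Tpp1 -0.16 (exact adjusted p = 0.0282). Gaa stood at -0.08 (exact adjusted p = 0.00122) and Hexa at -0.16 (exact adjusted p = 0.00776). The 3 membrane genes were Lamp1 at -0.08 (exact adjusted p = 0.0118), Lamp2 at -0.11 (exact adjusted p = 0.0384) and Scarb2 at -0.13 (exact adjusted p = 0.000431). Lamp1, Lamp2 and Tpp1 did not pass with DESeq2 size factors, nor did Lamp2 with no filter on low counts. No sulfatase and no lipid hydrolase differed beyond counting error. The 9 genes had a median of 4156 counts and the other 29 a median of 932.5. With 1 sample at each side, these p-values compare libraries and say nothing of mice, and intervals cover counting error only.

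**Figure D4:**
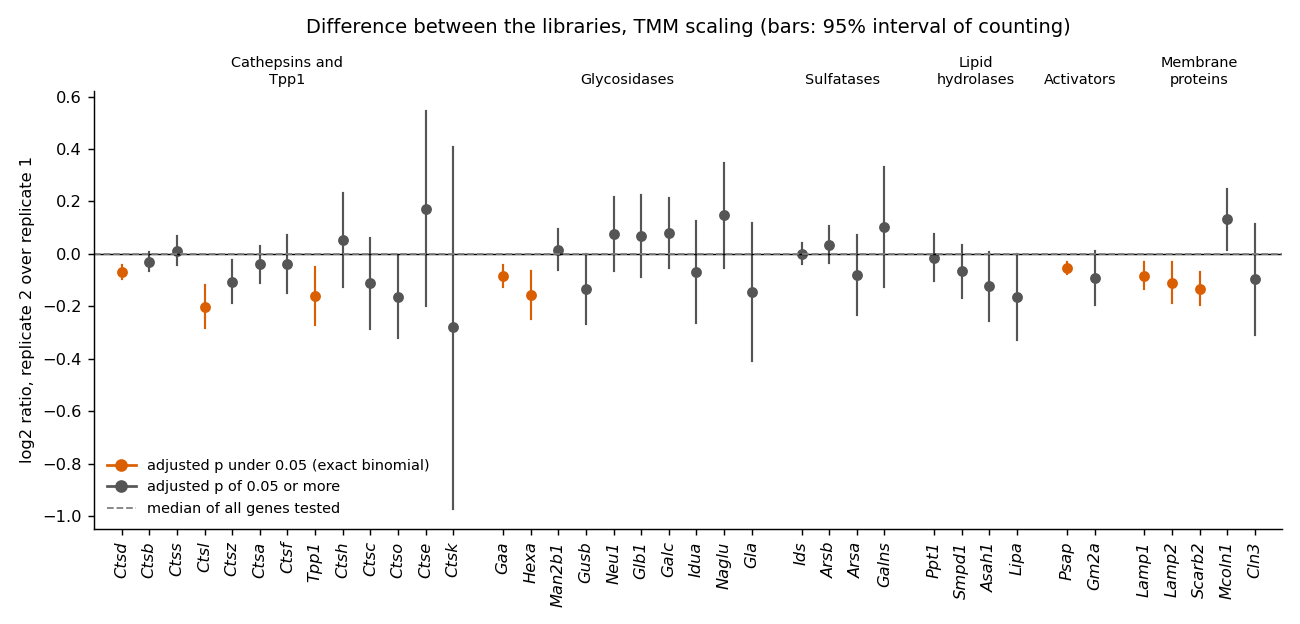
Log2 ratio of replicate 2 over replicate 1 per gene after TMM scaling, with the 95% interval of counting error. The 9 genes with an exact adjusted p under 0.05 (orange) lie between -0.20 and -0.05; on the spike-in scale all 9 lie above 0.

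Other genes of the lysosome, from lists chosen with the results of these data known, gave the following counts. For comparison, 9.13% of all genes tested were lower in replicate 2 beyond counting error on the TMM scale, and 9.29% higher. Of 18 other lysosomal enzymes and their processing factors, none was higher in replicate 2 beyond counting error on the TMM scale, and Lgmn, the protease legumain (79.8 and 74.3 TPM), was lower. Of 17 other membrane proteins tested, 4 were lower and 1 higher, Laptm4a (105 and 99.8 TPM), Laptm5 (87.2 and 80.7 TPM), Cd63 (79.6 and 75.1 TPM) and Mfsd8 (8.68 and 6.72 TPM) being the lower and Tmem106b (66.7 and 76.7 TPM) the higher. On the spike-in scale Mfsd8 comes near 0, and Lgmn, Laptm4a, Laptm5 and Cd63 change sign, as do the medians of the glial marker lists given below, while the genes named as higher stay higher.

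The V-ATPase, the proton pump that acidifies lysosomes and also synaptic vesicles, was measured as a further group. The median over its 19 genes was 113 ± 2.50 TPM (SD, n = 2), against 36.0 for the 38. Of the 19, 9 were higher in replicate 2 beyond counting error on the TMM scale, against 9.29% of all genes, and none lower, with Atp6v0c at 445 and 482 TPM, Atp6v1g2 at 234 and 274 TPM and Atp6v1a at 210.4 and 254 TPM. The median log2 ratio of the 19 was 0.08, on the other side of 0 from that of the 38 on this scale.

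The receptors that sort hydrolases were also expressed. M6pr, the small mannose 6-phosphate receptor, was at 39.95 and 40.73 TPM and Igf2r, the large one, at 12.9 and 12.2 TPM. Sort1, sortilin, stood highest at 129.9 and 147 TPM and was higher in replicate 2 (log2 0.14, exact binomial adjusted p = 5.09e-18, TMM scale). Grn, the progranulin that binds sortilin and prosaposin, was at 67.7 and 71.9 TPM.

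Among the factors that act on lysosomal genes, Tfe3 was at 16.8 and 14.5 TPM, Tfeb at 10.3 and 8.25 TPM and Mitf at 4.74 and 5.74 TPM. Tfec had 2 and 3 counts. Zkscan3, described as a repressor of lysosomal genes, was at 18.2 and 19.2 TPM. The kinase gene Mtor was at 40.2 and 38.2 TPM, and the genes of its lysosomal docking, Rraga, Rragc, Rragd and Lamtor1, lay between 23.7 and 59.4 TPM. None of the 9 tested regulators differed between the libraries beyond counting error on the TMM scale.

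Among the lists examined, markers of neighbouring tissue differed most between the 2 libraries. Over all genes tested, 9.13% were lower in replicate 2 beyond counting error on the TMM scale, and 9.29% higher. All 8 choroid plexus markers were lower in replicate 2 and summed to 1206 and 185 TPM, as were all 7 striatum markers, at 158 and 63.2 TPM, and 4 of 6 meninges markers were lower, the 6 together summing to 123 and 66.5 TPM. Neuron markers summed to 3064 and 3494 TPM, with 5 of 7 higher in replicate 2 and 1 lower. Of 10 microglia markers 3 were lower and none higher, with sums of 849 and 845 TPM, and of 6 oligodendrocyte markers 2 were lower, at 1513 and 1494 TPM. Astrocyte markers summed to 1929 and 1972 TPM, with 3 of 6 lower. Sums are of TPM and calls rest on TMM-scaled counts, so they can point different ways, as in the astrocyte list. No defining marker of choroid plexus was at 0 in either library. On the TMM scale the median log2 ratio was -0.07 for the 38, 0.0048 for the other lysosomal enzymes (10 of 18 higher by sign) and 0.0014 for the other membrane proteins (9 of 17 higher by sign). It was -0.06 for the microglia markers, -0.06 for the astrocyte markers, -0.04 for the oligodendrocyte markers and 0.14 for the neuron markers. These differences between lists were not tested. The part of tissue makeup in the differences of the 9 genes was not tested.

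**Figure D5:**
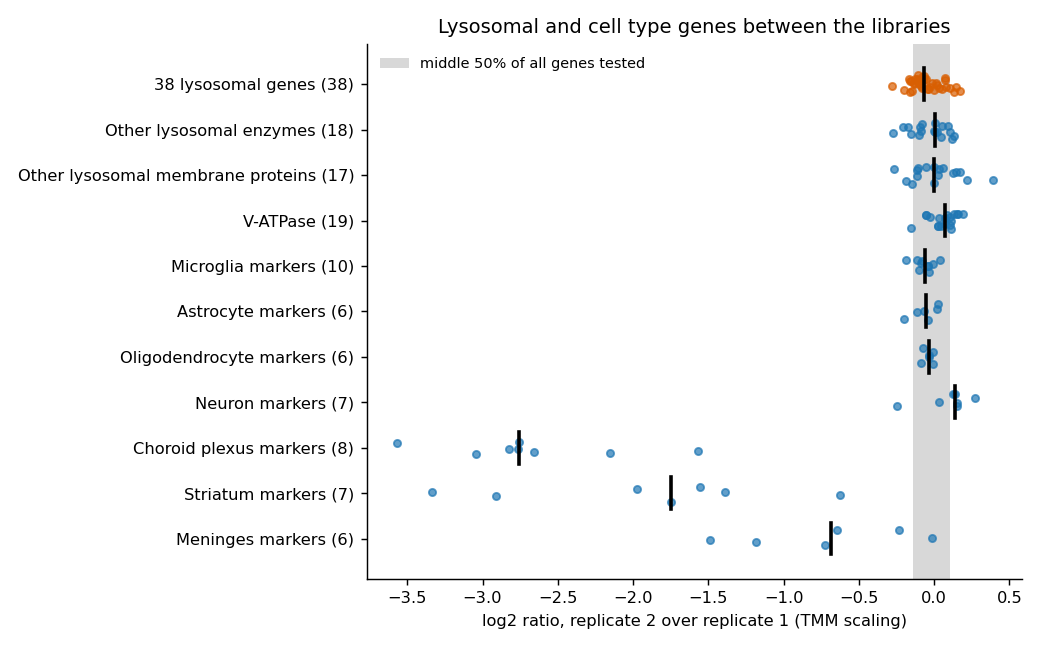
Log2 ratio of replicate 2 over replicate 1 (TMM scaling) for each gene of the named lists, with the number of genes in brackets, black bars at list medians and a grey band for the middle 50% of all genes tested. The 38 lysosomal genes lie near 0, and the choroid plexus and striatum markers lie far to the left.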

How the data were processed

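Counts, TPM and transcript shares came from 2 libraries of 1 group. The expected counts and TPM were deposited by the authors per gene and per transcript, TPM being scaled for length and depth, per the file headers. A further column, a percent made by the authors, gives each transcript's share of its gene's TPM, per the file headers. The assembly was mm10, per the labels, and all gene identifiers matched GENCODE M21. A second transcript table, made without alignment judging by its columns, was summed per gene. The aligner and quantifier were not given in the sources used here. Of the 38 genes, 7 overlap another gene on the same strand and 15 on the other.

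Counts were rounded and scaled by TMM (edgeR 4.0.16, R 4.3.3). Genes with a mean count of at least 20 were tested by a two-sided exact conditional binomial test with Benjamini-Hochberg adjustment, called at 0.05. Log2 ratios used a prior count of 0.5. Intervals are 95% Clopper-Pearson. Python 3.11.15, numpy 2.4.6, pandas 2.3.3, scipy 1.17.1 and matplotlib 3.10.9 did the rest. The test was also run on simulated counts with changes far larger than those of the called genes. That run does not bear on differences as small as theirs. Alternatives used DESeq2 1.42.0 size factors, library size, spike-ins, other thresholds and the alignment-free table.

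The genes and lists were chosen with earlier results of these data known. All 38 genes are named. Those past the test have their ratios given, with the 3 highest of the lysosomal lists and all sorting receptors and regulators; some genes the rule took are not reported here. The cell type lists are given as sums. Protein sequences were not used here.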

Additional observations from a re-analysis of the deposited data

How the results depend on the processing

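No paired analysis was possible because there was 1 group. Scaling by spike-ins changed the results most: the median log2 ratio of the 38 was 0.20 and 27 of them differed, all higher in replicate 2. On that scale the log2 ratios were 0.21 for Psap, 0.20 for Ctsd, 0.18 for Gaa, 0.18 for Lamp1, 0.066 for Ctsl, 0.16 for Lamp2, 0.11 for Hexa, 0.13 for Scarb2 and 0.11 for Tpp1. The cause was not tested. With library size 10 of the 38 differed, with DESeq2 size factors 6, with no count filter 8, with a minimum of 100 counts 9, and with alignment-free counts 10, of which 9 were lower and 1 higher. Of the 9 called genes, Lamp1, Lamp2 and Tpp1 did not pass with DESeq2 size factors, nor did Lamp2 with no count filter. None of the 38 was more than 2-fold apart under any scaling tried.

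The median level of the 38 was 79.8 TPM when TPM were rescaled over nuclear protein-coding genes, and 21.5 TPM over coding transcripts alone, an alternative chosen after seeing the data; each follows from its denominator or from the transcripts left out. Leaving out a replicate gave 34.6 to 37.5 TPM. The ratio of alignment-free to alignment-based counts was 1.11 over coding transcripts. The coding share was 94.7% by alignment-free counts and 88.6% by TPM. With TCACGTGA in place of CACGTG the count of promoters was 5, and with G before and C after it as well 1. Depth limits Ctsk and Ctse most, whose ratios had the widest intervals.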

Other observations

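Inhibitors of the cathepsins were also measured. Cst3, cystatin C, a secreted inhibitor of cysteine cathepsins, stood at 1903 and 1849 TPM, above each of the 38 lysosomal genes. Relative to the bulk of genes it was lower in replicate 2, with a log2 ratio of -0.08 (exact binomial adjusted p = 2.79e-08, TMM scale), and on the spike-in scale it was higher. Serpina3n, a serine protease inhibitor of reactive astrocytes, was at 75.7 and 74.3 TPM, and Cst7, cystatin F, an inhibitor known from activated microglia, at 64.6 and 61.6 TPM. Neither of those differed beyond counting error.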
